A study of Betula luminifera with 4 samples.

Results

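The miR482 family was followed in small RNA sequencing of Betula luminifera, a birch tree. Its members are all sequences of the deposited miRNA table whose name begins with miR482, in any arm and of any length, each distinct mature sequence counted once. They were chosen by name and not by a measured value. There are 12 of them among 215 distinct sequences in the table. All plants were of the tissue-culture clone G49#, planted in sand as seedlings 2 months old and given medium with phosphate for 2 weeks and then water for 2 weeks. The 54 plants were then split between a control medium with 1.25 mM KH2PO4 (CK) and a medium with no KH2PO4 (LP), in a block design with 3 replicates; how long this treatment lasted is not stated in the labels. Root RNA made a root library, and stem and leaf RNA pooled in equal amounts made a shoot library, which gave 4 groups of 1 library each, called control roots, LP roots, control shoots and LP shoots here and root or control shoots and LP in the plots. Without replicates nothing below could be tested against the spread between plants. The ranges in parentheses are 95% intervals that cover counting error in a pair of libraries and say nothing of how plants vary. The table holds no mRNA, so the tissue labels could not be checked against marker genes.

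MicroRNAs of the miR482/miR2118 superfamily guide cleavage of transcripts that encode immune receptors of the nucleotide-binding, leucine-rich repeat class, by pairing with the stretch that encodes their conserved P-loop. In other plants most members are 22 nt long, and a 22-nt miRNA can recruit an RNA-dependent RNA polymerase to the cleaved target, from which a Dicer-like enzyme cuts phased secondary siRNAs (phasiRNAs). The related families miR472 and miR1510 act on the same class of receptors in poplar, Arabidopsis and legumes. Neither target transcripts nor phasiRNAs were analysed here, so the name of the family as a phasiRNA trigger rests on knowledge from other species and, in these data, on length alone.

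By sequence, 10 members share a conserved 3' part and are of 2 kinds, and the other 2, miR482h and miR482b-5p, are unlike them. The table's arm column gives 4 members as 5' arm, these 2 and also miR482d and miR482e-3p, although the last is named 3p. The first kind, with 6 members, starts with TCTT and is shown because it held nearly all reads. Bases 2 to 8, the seed, are in capitals, and T stands for U as in the deposited table.
miR482b: tCTTCCCTactccgcccatgcc
miR482j: tCTTCCCTactccacccattcc
miR482a: tCTTTCCTagtccacccattcc
miR482c: tCTTTCCTagccctcccattcc
miR482d: tCTTTCCTaaccctcccattcc
miR482g: tCTTACCTattccacccattcc
These 6 sequences were identical at 17 of their 22 positions. miR482b and miR482j shared 1 seed, miR482a, miR482c and miR482d shared another, and miR482g had a seed of its own. No sequence outside the family had any of these seeds. With positions counted from 1 at the 5' end and the base of the first-named member first, miR482b differed from miR482j by G14A and G20T, miR482a from miR482c by T11C and A14T, miR482a from miR482g by T5A and G10T, and miR482c from miR482d by G10A alone. Of the 5 positions that varied among the 6 members, only position 5 lies in the seed.

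The second kind carries AA after the conserved part. Its 4 members were rare and are shown for contrast, with the seed again in capitals.
miR482e-3p: tTACCGACtccccccattccaa
miR482f-3p: tTCCCGAAacctcccattccaa
miR482i-3p: tTCCCAAGcccgcccattccaa
miR482k: tTGCCTATtcctcccatgccaa
Each of these 4 had a seed that no other sequence of the table had. The remaining members were the 21-nt miR482h and the 18-nt miR482b-5p, both given as 5' arm.
miR482h: gGAATGGGctatttgggaaga
miR482b-5p: aTGGGCGAgtggggaaga
The motif CCCATNCC, picked after the sequences were seen, stood in 10 of the 12 members and in 0 of the 203 other sequences. Its reverse complement, GGNATGGG, stood in miR482h and in 0 of the 203 others, which leaves miR482b-5p as the 1 member with neither. A match is a description of these letters and not a target site.

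Only 3 of the 12 sequences, miR482d, miR482j and miR482k, are marked in the table as identical to a miRBase entry. miR482b stood 2 substitutions from its closest entry, stu-miR482d-3p (C5G and T11A, birch base first), and the hairpins listed for it were 10 of MIR482 and 4 of MIR472. miR482a differed from ppe-miR482f by G10C, and 4 of its 9 listed hairpins were MIR2118. miR482g differed by C2T from a 3' arm sequence of the soybean hairpin gma-MIR1510a, and both hairpins listed for it were MIR1510, none MIR482. By the authors' matches, the birch family thus spans what other species name miR482, miR472, miR2118 and miR1510.

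The family took 14.2% of the reads in the table in control roots (14.04% to 14.3%), 7.17% in LP roots (7.01% to 7.33%), 26.9% in control shoots (26.8% to 27.01%) and 37.4% in LP shoots (37.3% to 37.6%). It was the most abundant family in both shoot libraries, ahead of miR166 at 19.2% in control shoots and miR156 at 12.7% in LP shoots, and ranked 3 in control roots and 4 in LP roots. The reads of all distinct sequences summed to 308667, 101816, 1015833 and 723599 in the same order, so values of LP roots have the widest intervals. These are totals of the table and not of the libraries. Levels below are the authors' normalized values unless reads are named, and each normalized value is the raw read number times 1 constant per library, 1.02 for control roots, 2.73 for LP roots, 0.517 for control shoots and 0.780 for LP shoots.

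**Figure D1:**
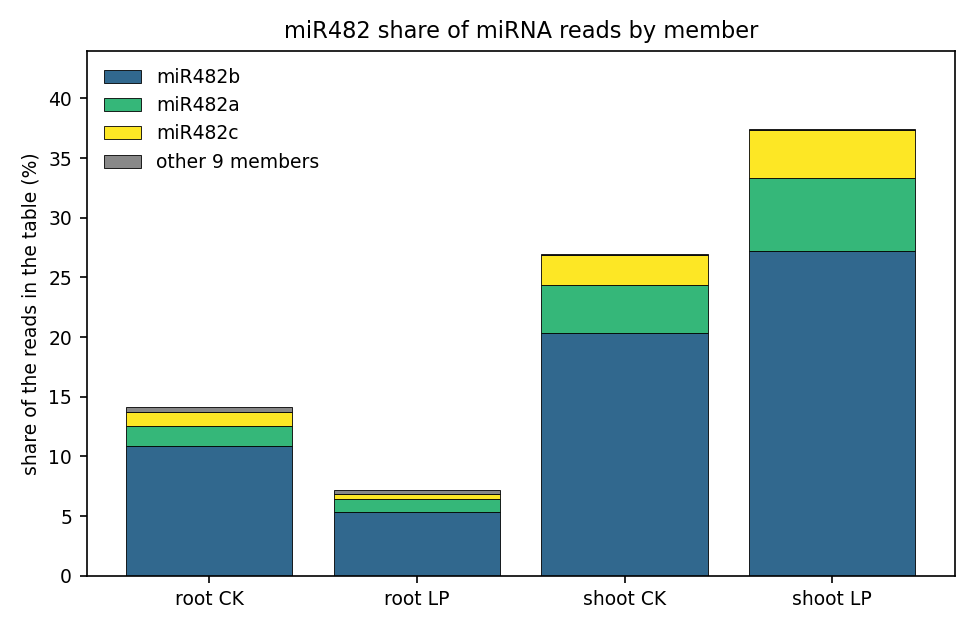
Share of the reads in the table (percent, vertical axis from 0) that each library (horizontal axis) gave to miR482b, miR482a, miR482c and the other 9 members, stacked; 1 library per group. The whole bars reach 14.2% in control roots, 7.17% in LP roots, 26.9% in control shoots and 37.4% in LP shoots, and the grey part is visible in roots only.

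Within the family, miR482b, miR482a and miR482c held 96.9% of the reads in control roots, 96.02% in LP roots, 99.7% in control shoots and 99.9% in LP shoots. Of the 12 members 5 had reads in every library, 7 reached a normalized value of 10 in at least 1, and the other 5 never exceeded 6 reads. By library, 8 members were above 0 in control roots, 7 in LP roots, 11 in control shoots and 9 in LP shoots. Reads of a small RNA stand for whole molecules, so members were compared without a correction for length; how well each was ligated and amplified was not measured.

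miR482b, the most abundant member, stood at 34312 in control roots, 14866 in LP roots, 106660.3 in control shoots and 153732 in LP shoots. It alone made up 10.9%, 5.35%, 20.3% and 27.2% of the reads in the table in that order, and it was the most abundant sequence of the whole table in both shoot libraries. In roots it ranked 4 under CK and 5 under LP. Both shoot libraries lay above both root libraries, and LP roots was the lowest.

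miR482a stood at 5355 in control roots, 2921 in LP roots, 21397 in control shoots and 34318 in LP shoots. miR482c, with the same seed, stood at 3623, 1343, 12835 and 23027. Both had the same order of libraries as miR482b: LP shoots, control shoots, control roots, LP roots, each neighbour in that order being apart by more than the counting interval.

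The ratios among the 3 were not constant. There were 6.41 reads of miR482b for each read of miR482a in control roots (6.22 to 6.60), 5.09 in LP roots (4.77 to 5.44), 4.98 in control shoots (4.93 to 5.04) and 4.48 in LP shoots (4.43 to 4.53). Reads of miR482a per read of miR482c were 1.48 (1.42 to 1.54), 2.17 (1.95 to 2.42), 1.67 (1.64 to 1.69) and 1.49 (1.47 to 1.51). The seed shared by miR482a, miR482c and miR482d accordingly held 20.1% of the family's reads in control roots, 21.4% in LP roots, 24.2% in control shoots and 27.1% in LP shoots, and the seed of miR482b and miR482j held 76.8%, 74.6%, 75.5% and 72.7%. The raw values of miR482c and miR482d are fractional in control shoots, and they differ by 1 base, so how reads were split between them is uncertain. At 3 reads or fewer in any library, miR482d itself is the value this could change most.

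miR482g, the member closest to legume miR1510, had another pattern. It stood at 163 in control roots, 92.8 in LP roots, 261 in control shoots and 165 in LP shoots, so control roots and LP shoots were nearly equal. For each of its reads there were 32.8 reads of miR482a in control roots (28.0 to 38.6), 31.5 in LP roots (22.4 to 45.7), 81.8 in control shoots (75.0 to 89.5) and 208 in LP shoots (182 to 240). Its share of the family was thus lowest in LP shoots, at 0.0779%, against 0.366% in control roots.

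miR482h, the 21-nt sequence of the 5' arm, had the reverse order of tissues. It stood at 1191 in control roots, 678 in LP roots, 146 in control shoots and 127 in LP shoots. Both root libraries lay above both shoot libraries, the opposite of miR482a, miR482b and miR482c. Its part of the family's reads was 2.67% under CK and 3.40% under LP in roots, but 0.103% and 0.0602% in shoots. Its raw values are fractional in control shoots and LP roots, so its reads there are estimates.

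The remaining members were near the limit of what the libraries could show. miR482f-3p had 2 reads in control roots, 0 in LP roots, 35 in control shoots and 20 in LP shoots. miR482b-5p had 5 reads, all in LP roots. miR482i-3p had 5 reads in control roots, 3 in LP roots, 2 in control shoots and 0 in LP shoots. miR482d, miR482e-3p, miR482j and miR482k had at most 6 reads in any library, and miR482e-3p, miR482j and miR482k had reads in shoots only. Of the 705 values above 0 in the table, 5 are of exactly 1 read, so a 0 may stand for a read not listed, and no fold is given against it.

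**Figure D2:**
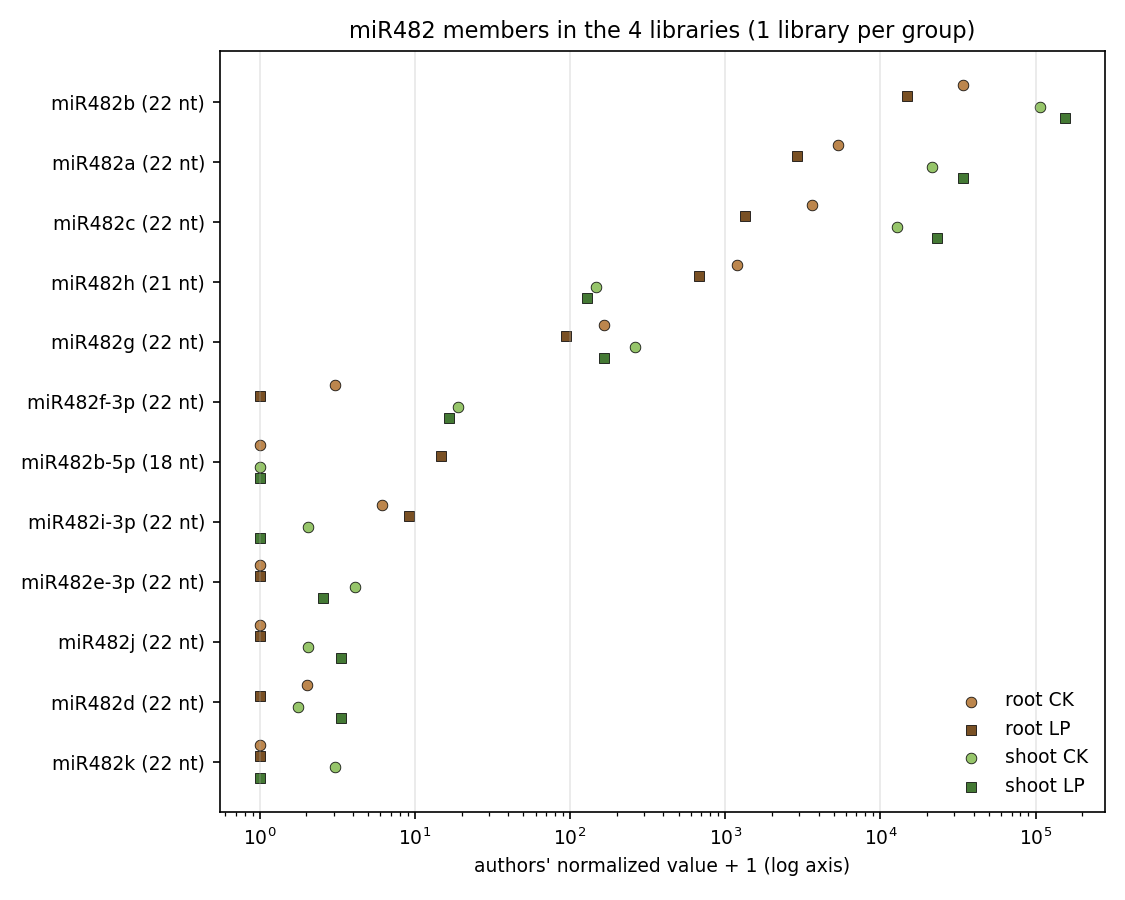
Authors' normalized value plus 1 (horizontal log axis) of each of the 12 members (rows, with length in nt) in control roots, LP roots, control shoots and LP shoots, 1 point per library. miR482b, miR482a and miR482c lie highest in the shoot libraries, whereas miR482h lies highest in the root libraries, at 1191 and 678 against 146 and 127.

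In roots, LP against CK, the family was 2.24-fold lower (2.19 to 2.30), at 19922 against 44654. A member was counted as apart when its log2 ratio, taken after adding 1 to both values, reached 2-fold and 1 of the 2 libraries had a value of at least 10. The filter is uneven, because the constant is 2.73 for LP roots, 1.02 for control roots, and 0.517 and 0.780 for shoots. A value of 10 thus takes the fewest reads in LP roots, and sequences with few reads pass most easily through that library. Of 6 members past that filter, 2 were at least 2-fold lower, miR482b and miR482c, and 1 was higher, miR482b-5p with its 5 reads against 0. For comparison, 18.2% of all 143 sequences that passed were 2-fold or more lower, 23.8% higher and 42.0% apart in either direction, so 3 of 6 members is a share near the background.

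By member, miR482c was 2.70-fold lower in LP roots (2.45 to 2.97), miR482b 2.31-fold lower (2.24 to 2.38) and miR482a 1.83-fold lower (1.72 to 1.96). The intervals of these 3 do not overlap, so their ratios differed by more than counting error between the 2 root libraries. Whether they differ beyond the variation of library preparations and plants was not tested. miR482g was 1.76-fold lower (1.21 to 2.63) and miR482h also 1.76-fold lower (1.53 to 2.02). The median log2 ratio of the 6 members was -0.84, against 0.07 for all 143 sequences. Scaled to the table total, the family's log2 ratio of -1.16 became -0.98, under 2-fold.

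In shoots, LP against CK, the family stood at 211390.1 against 141326, 1.50-fold higher (1.49 to 1.50). Of 6 members past the filter 0 were 2-fold apart. Of the 140 sequences past it, 17.1% were at least 2-fold higher, 27.9% lower and 45.0% apart in either direction. miR482c was 1.79-fold higher (1.76 to 1.82), miR482a 1.60-fold (1.58 to 1.63) and miR482b 1.44-fold (1.43 to 1.45). The less abundant members had ratios below 1: miR482g was 1.59-fold lower (1.35 to 1.87), and the ratios of miR482h (0.871-fold, 0.713 to 1.06) and miR482f-3p (0.863-fold, 0.472 to 1.54) had intervals that include equality. Of the 6 members, 3 had a log2 ratio above 0, and their median was 0.17 against -0.23 for all 140 sequences. TMM scaling, a trimmed mean of ratios, moved all shoot ratios by 0.39 on the log2 scale, which took miR482a to 1.08 and miR482c to 1.24, past 2-fold, and turned the signs of miR482h (from -0.20 to 0.19) and miR482f-3p (from -0.20 to 0.17).

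**Figure D3:**
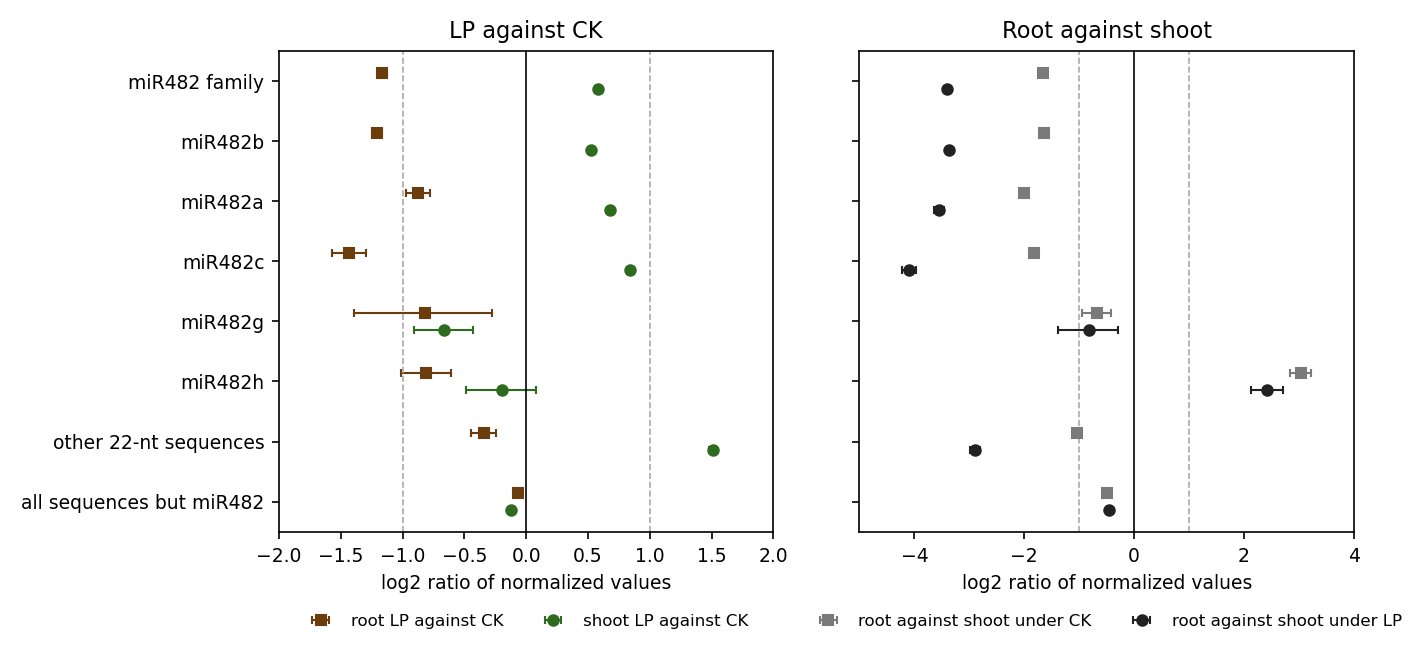
Log2 ratio of normalized values (horizontal axis) for the family, 5 members, the sum of the other 22-nt sequences and the sum of all sequences but miR482 (rows); left LP against CK, right root against shoot. Bars are 95% counting intervals, too short to see where reads are many, and dashed lines mark 2-fold. miR482a, miR482b and miR482c lie below 0 in roots and above 0 in shoots, miR482g lies below 0 in all 4 comparisons with the authors' constants (above 0 between tissues when scaled to the table total), and miR482h lies far to the right in both comparisons of root with shoot.

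Between tissues, the family was 3.16-fold lower in root than in shoot under CK (3.13 to 3.20) and 10.6-fold lower under LP (10.4 to 10.9). Scaled to the table total, its log2 ratio went from -1.66 to -0.93 under CK, below 2-fold, and from -3.41 to -2.39 (-2.385) under LP. In bulk tissue, fewer cells of a type and less RNA per cell cannot be told apart, and the makeup of roots, stems and leaves was not measured. Under CK, 4 of 6 members past the filter were at least 2-fold lower in root, miR482a, miR482b, miR482c and miR482f-3p, against 37.3% of 142 sequences. The 1 member at least 2-fold higher was miR482h, against 26.1%, and 63.4% of sequences were apart in either direction. Under LP, 4 of 7 were lower, against 37.3% of 158 sequences. The 2 higher ones were miR482h and miR482b-5p, against 34.2%, with 71.5% of sequences apart in either direction. miR482b-5p passed the filter only through LP roots, with 5 reads against 0. miR482f-3p passed it only through shoots, with 35 reads against 2 under CK and 20 against 0 under LP. The calls of these members thus rest on the side that let them in. With a value of at least 100, 3 of 5 members were lower and 1 higher under CK, and the same under LP. No share over all sequences was computed at that value.

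miR482a was 3.996-fold lower in root under CK (3.88 to 4.11) and 11.7-fold under LP (11.1 to 12.5). miR482b was 3.11-fold lower (3.07 to 3.14) and 10.3-fold lower (10.1 to 10.6), and miR482c 3.54-fold (3.42 to 3.67) and 17.1-fold (15.7 to 18.8). miR482h was 8.16-fold higher in root under CK (7.15 to 9.31) and 5.33-fold under LP (4.37 to 6.55). miR482g was 1.60-fold lower under CK (1.34 to 1.92) and 1.77-fold under LP (1.23 to 2.63), a direction that table-total scaling turned to log2 ratios of 0.06 and 0.19. The same scaling took the log2 ratio under CK of miR482b from -1.64 to -0.90, below 2-fold. This left 3 of 6 members at least 2-fold lower in place of 4. No share over all sequences was computed with that scaling. Since LP and CK comparisons and tissue comparisons share their libraries, the 4 sets of ratios are not separate evidence.

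By length, 10 of the 12 members were 22 nt. The 22-nt members held 97.3% of the family's reads in control roots (97.2% to 97.5%), 96.5% in LP roots (96.1% to 96.9%) and 99.9% in both shoot libraries, so nearly every read of the family had the length of a phasiRNA trigger. The remainder was miR482h and, in LP roots, the 5 reads of miR482b-5p. The table holds 16 other 22-nt sequences, which took 1.14% of the reads in control roots, 1.02% in LP roots, 1.42% in control shoots and 3.76% in LP shoots.

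The sum of these other 22-nt sequences differed less than miR482 in roots and more in shoots. It was 1.27-fold lower in LP roots than control roots (1.18 to 1.36) and 2.85-fold higher in LP shoots than control shoots (2.79 to 2.91). The shoot value rested mainly on miR167b, which targets auxin response factors and had a log2 ratio of 1.88; without it the other 15 were 1.41-fold higher in LP shoots (1.35 to 1.46) and 1.39-fold lower in LP roots. After miR167b, the most abundant were miR7122a (log2 ratio -0.11 in roots and 0.51 in shoots), miR171i-5p (-0.80 and 0.29), miR1515 (-0.83 and 2.38) and miR393b (-0.50 and 0.05).

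Across the table, the median log2 ratio of LP against CK changed with length from 20 to 24 nt, in opposite ways in the 2 tissues. Without miR482, the median log2 ratio in roots was 0.69 over the 18 sequences of 20 nt, 0.00 over 82 of 21 nt, -0.24 over 13 of 22 nt and -0.91 over 9 of 24 nt, of which 5 of the 13 and 3 of the 9 were above 0. In shoots the medians were -1.19 over 14 sequences of 20 nt, -0.34 over 77 of 21 nt, 0.33 over 14 of 22 nt and 0.89 over 18 of 24 nt, of which 9 of the 14 and all 18 were above 0. The lengths of 18, 19 and 23 nt had 6 sequences or fewer in either tissue. The 22-nt members of miR482 had log2 ratios of -1.18 in roots and 0.58 in shoots, on the same side of 0 as the medians of the other 22-nt sequences. A sum of reads and a median over sequences are different measures; the sums of the other 22-nt sequences had log2 ratios of -0.34 and 1.51. With 1 library per group, the source of this trend with length was not tested, and neither was the part of length in the miR482 ratios.

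**Figure D4:**
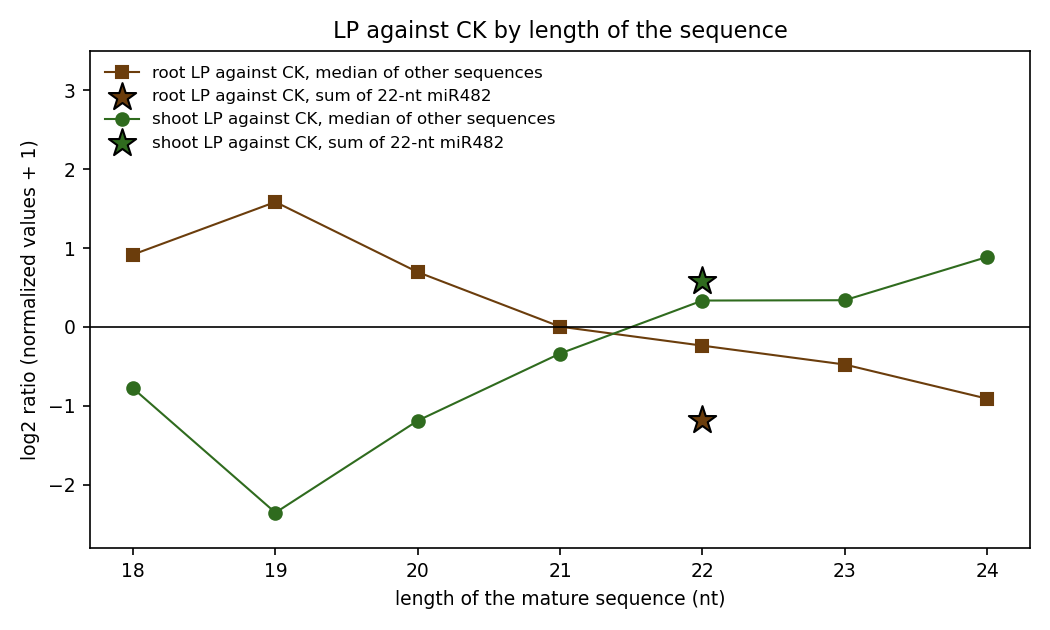
Log2 ratio of LP against CK (vertical axis) by length of the mature sequence in nt (horizontal axis); lines join the medians of sequences other than miR482 in roots and shoots, and stars mark the sum of the 22-nt miR482 members. From 20 to 24 nt the root line runs from 0.69 to -0.91 and the shoot line from -1.19 to 0.89, with the stars at -1.18 and 0.58; the bins at 18, 19 and 23 nt hold 6 sequences or fewer.

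The table gives a precursor on the authors' assembled transcripts for 8 members, and the other 4, miR482h, miR482i-3p, miR482j and miR482k, have none. The hairpins of the 3 abundant members are shown because they carry nearly all reads, with the mature sequence in capitals; positions are on the transcript, and no genome build was used here. miR482b lies on TRINITY_DN22938_c0_g10, positions 32 to 198, plus strand, miR482a on TRINITY_DN25560_c1_g3, positions 190 to 301, plus strand, and miR482c on TRINITY_DN25424_c1_g1, positions 650 to 724, plus strand.
miR482b: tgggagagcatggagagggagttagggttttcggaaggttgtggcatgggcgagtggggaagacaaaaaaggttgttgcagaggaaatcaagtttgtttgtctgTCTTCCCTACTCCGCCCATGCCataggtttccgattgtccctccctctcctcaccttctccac
miR482a: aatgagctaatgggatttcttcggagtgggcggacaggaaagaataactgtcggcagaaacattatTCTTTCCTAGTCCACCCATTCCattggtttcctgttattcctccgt
miR482c: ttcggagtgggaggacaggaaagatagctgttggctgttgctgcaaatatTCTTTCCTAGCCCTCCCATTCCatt
In the deposited structures, the 22 nt of each of these 3 face 21 nt of the other arm, with 21 of 22 bases paired for miR482b, 20 for miR482a and 19 for miR482c. Such a surplus of 1 base on the miRNA side of the stem is known from other plants as a feature of hairpins that yield 22-nt miRNAs. Folding with RNAfold gave -94.8 kcal/mol for miR482b, -49.1 for miR482a and -37.3 for miR482c. These belong to structures that differ from the deposited ones, for which the table gives -90.4, -50.1 and -35.2 in the same order.

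miR482b-5p lies on the hairpin of miR482b, with no mismatch and 18 of its 18 bases paired. The precursors of miR482d, miR482e-3p, miR482f-3p and miR482g fitted less well. The 47-nt stretch given for miR482g (TRINITY_DN23142_c1_g1, positions 177 to 223, minus strand) is shown as the contrast, again with the mature stretch in capitals.
miR482g: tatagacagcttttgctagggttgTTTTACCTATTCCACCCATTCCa
It differs from the sequenced miR482g by C2T and pairs only 3 of the 22 bases in the deposited structure. RNAfold gave -7.8 kcal/mol with a different structure. The stretches for miR482d and miR482e-3p, 39 and 42 nt long, also had 1 mismatch each to the mature sequence (C17A and A3G) and paired 7 and 4 of 22 bases. miR482f-3p had a 152-nt hairpin with 17 of 22 bases paired and 1 mismatch (A8G). A hairpin that contains the exact mature sequence in its stem was therefore deposited for miR482a, miR482b, miR482b-5p and miR482c, whereas the origin of miR482g, at up to 506 reads, is not given by the table.

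The sequences listed for the miR482b hairpin had very unequal reads. The only one on the 5' arm, miR482b-5p, is 18 nt long. Other forms of that arm may be unlisted, so use of the arms was not measured. miR482b-5p lies on the same precursor as miR482b, at bases 46 to 63 of it against 105 to 126, and in LP roots, the only library that listed it, there were 1089 reads of miR482b for each of its reads (466 to 3356). miR482h and miR482i-3p were matched by the authors to the 5' and 3' arms of the apple hairpin mdm-MIR482a, but the table gives neither a birch precursor. miR482h stood at an edit distance of 8 from the reverse complement of miR482i-3p and of 5 from those of miR482b and miR482j. These distances compare whole sequences end to end, so a true pair with offset ends would also score apart. Whether miR482h and miR482i-3p share a hairpin was not tested. There were 233 reads of miR482h per read of miR482i-3p in control roots (99.6 to 720) and 82.8 in LP roots (28.1 to 405).

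miR1510, named apart from the family in the table, overlaps miR482g. It is shown with the 15 bases that it shares with miR482g in capitals.
miR1510: ttgttTTACCTATTCCACCCgt
Its first 20 bases stand unbroken in the precursor given for miR482g, and it had 0 reads in both CK libraries and 9 in each LP library. No sequence outside the family stood within an edit distance of 6 from a member or shared a seed with one, and miR1510 at 8 was among the closest.

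Other miRNAs that trigger secondary siRNAs in other plants were compared from a list of 16 families, of which 6 were in the table at a value of at least 10. They were miR390, which triggers trans-acting siRNAs against auxin response factors, miR393, which targets auxin receptors, miR828, which targets MYB genes, miR1510, miR1515 and miR7122. In roots 2 of the 6 were at least 2-fold higher under LP and 0 were lower. These were miR828, 2.29-fold from 7 and 6 reads with an interval that includes equality (0.636 to 7.96), and miR1510, listed at 0 in control roots and with 9 reads in LP roots. The list's median log2 ratio was 0.03, against 0.16 for the 47 measured families other than miR482, of which 29.8% were 2-fold apart. In shoots 1 of 5 was higher, miR1515, 5.24-fold (4.41 to 6.24), and 2 were lower, miR390 2.23-fold (2.13 to 2.34) and miR828 2.43-fold (1.53 to 3.99). The median there was -0.15, against -0.64 for 41 families with 56.1% apart.

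No list family had the miR482 combination of a 2-fold lower value in roots and a higher one in shoots. With the table total, the root log2 ratio of miR482 itself was -0.98, under 2-fold. Outside the list, the 22-nt sequence miR396b had the combination. Its log2 ratios were -1.33 in roots, with 6 reads in LP roots, and 0.91 in shoots. In the list, miR1515 came nearest in direction, with 92.98 in control roots, 51.9 in LP roots, 88.4 in control shoots and 463 in LP shoots. miR7122 stood at 1048, 1007, 1967 and 2666, and miR393 at 293, 317, 165.0 and 149. The silencing families miR162, which targets DCL1, miR168, which targets AGO1, and miR403, which targets AGO2, had log2 ratios of -0.59, 0.02 and -0.43 in roots and -0.30, -0.78 and 1.48 in shoots.

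Likeness of pattern was measured as the largest difference over the 4 libraries between log2(value + 1) profiles, each centred on its mean, so that a smaller value is more alike. Against the family sum, miR482b differed by 0.04, miR482a by 0.27, miR482c by 0.35, miR482f-3p by 0.80, miR482g by 1.52, miR482h by 3.01 and miR482b-5p by 4.75. The sum is mostly miR482b, so its own small value follows from that. Of 34 other families with a value of at least 100, the closest were miR403 at 0.92, miR167 at 1.06, miR159 and miR169 both at 1.16, and miR7122 at 1.24. None of these 5 was as close as miR482f-3p, but members entered at a value of 10 and not 100. miR482f-3p had 0 reads in LP roots and at most 35 in any library, so its difference depends on the added 1. Of 88 other sequences, the closest were the predicted 24-nt blu-miR13-3p at 0.27, the 21-nt miR167d-3p at 0.43, the 24-nt blu-miR8-5p at 0.44, the 22-nt miR396b at 0.46 and the 24-nt blu-miR8-3p at 0.63. All 5 of these sequences were closer to the family sum than miR482f-3p. blu-miR13-3p was as close as miR482a and closer than miR482c, so the pattern is not particular to the family. It stood at 30.7 in control roots, 13.6 in LP roots, 90.4 in control shoots and 187 in LP shoots.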

How the data were processed

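The authors sequenced small RNA from 4 libraries with a TruSeq kit as 36-nt single reads, per the labels' protocols. The deposited raw columns hold estimated counts, some fractional, and the deposited normalized columns hold a signal equal to the raw column times 1 constant per library, per the file headers and values. The way these constants were set, the aligner and the counter are each not given in the sources used here. Of 221 rows, 215 distinct sequences were kept; repeated rows held the same values. Folds are plain ratios of normalized values with exact conditional (Clopper-Pearson, 95%) intervals from rounded reads; log2 ratios add 1; shares have exact binomial intervals. PCR reads are not independent molecules, so intervals cover counting error only. With 1 library per group no test was run. Scalings used edgeR 4.0.16 (TMM) and DESeq2 1.42.0 (median of ratios) on counts rounded to whole numbers; folding used RNAfold 2.7.2. Calls and intervals were checked on simulated reads drawn with counting error only, which tests the calculation and not the spread between plants. The text names all members, list families with a value of 10 or more, the 5 other families and 5 other sequences closest in pattern, and the 5 most abundant other 22-nt sequences. Members, lists and naming rule were chosen with earlier results of these data known.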

Additional observations from a re-analysis of the deposited data

Results flagged for a closer look

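The LP response had opposite signs in roots and shoots for the miR482 family and for miR482a, miR482b and miR482c, the only members past the value filter in both tissues for which this held. The log2 ratio in roots minus that in shoots was -1.75 for the family (counting interval -1.78 to -1.71), -1.56 for miR482a (-1.65 to -1.46), -1.73 for miR482b (-1.78 to -1.69) and -2.27 for miR482c (-2.41 to -2.14). These intervals are normal approximations for counting error. With 1 library per group the difference between tissues was not tested, and the 3 sequences share their libraries. For miR482g the same difference was -0.15 (-0.73 to 0.44) and for miR482h -0.61 (-0.96 to -0.27). The shoot ratio of miR482h has a counting interval that includes equality, and its sign turned under TMM scaling.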

How the results depend on the processing

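The direction of the family's log2 ratio was kept in all 4 comparisons under every alternative tried, but its size was not. In roots, LP against CK, -1.16 became -0.98 with the table total, -1.09 with the table total without miR482, -1.21 with TMM and -1.03 without miR482b, the most abundant member. In shoots 0.58 became 0.48, 0.70 and 0.97 under the same scalings, 0.75 with the median of ratios, 0.73 without miR482b and 0.55 with only the members that have whole reads. For root against shoot under CK, -1.66 became -0.93, -1.16, -1.55 and -1.41 under the 4 scalings, -1.75 (-1.745) without miR482b and -1.69 with whole reads only. Under LP, -3.41 became -2.39 (-2.385), -2.95, -3.74 and -3.36, and -3.51 without miR482b. Relative to the authors' constants, table-total scaling shifted root-against-shoot ratios by 0.73 with CK and 1.02 with LP. Members 2-fold apart in shoots went from 0 of 6 to 2 of 6 with TMM and 1 of 6 with the median of ratios. These scalings shift every shoot log2 ratio alike, by 0.39 and 0.16. The share of all sequences apart was not computed under them, so these counts have no background either. Without the filter on low values they were 5 of 9 in roots and 2 of 11 in shoots, in place of 3 of 6 and 0 of 6. For root against shoot they were 9 of 11 with CK and 10 of 11 with LP, in place of 5 of 6 and 6 of 7. The members added had 6 reads or fewer in the libraries compared. No share over all sequences was computed without the filter, so these counts have no background. Signs turned for miR482f-3p (0.17) and miR482h (0.19) in shoots under TMM, and for miR482g (0.06 or 0.0572 under CK, 0.19 under LP) between tissues with the table total. The family's share of reads was 13.96%, 7.01%, 26.7% and 37.2% for control roots, LP roots, control shoots and LP shoots with rows as deposited, 16.6%, 8.80%, 32.2% and 45.6% without predicted sequences in the total, and 14.9%, 7.66%, 27.2% and 38.1% without tRNA-like families. The cause of these differences was not tested beyond what each setting changes. No paired analysis was possible because each group has 1 library, and for the same reason no replicate could be left out. Depth limits miR482d, miR482e-3p, miR482i-3p, miR482j, miR482k and miR482b-5p, at 6 reads or fewer.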
